A study of Mus musculus with 39 samples.

Results

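Subcutaneous adipose tissue of C57BL/6J mice on a high-fat diet with the highest dose of KAL-1 was compared with that of lean control mice, to show what still differed from the lean control at that dose. The 12 arrays were those of the HF75 and LFC groups at Weeks 3, 6, 9, 12, 15 and 18, taken from 39 arrays in all, 6 in each group, and each HF75 array was paired with the LFC array of its week. LFC mice ate a diet with 10% of its calories from fat. HF75 mice ate HFHSD, a diet rich in sucrose with 60% of its calories from fat, with 75 µg of KAL-1, which the labels describe only as an ethano-botanical formulation. Mice entered the diets after weaning, at 3 to 4 weeks of age, and 5 animals of each group were killed every 3 weeks, but whether the RNA on an array came from a single mouse or a pool is not given. The text of the series speaks of biological replicates for each diet, while each diet had 1 array at each week here, so what an array stands for is not settled. Thus n counts arrays and each p-value measures the spread of the diet difference between weeks.

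All values are levels or differences of levels. A level is the log2 of the processed spot intensity minus the log2 of the 75th percentile of its array, so that a level of 0 is that percentile and 1 unit is a 2-fold step. A difference is the HF75 level minus the LFC level, averaged over weeks. The tissue is bulk fat, in which fewer cells of a type and less RNA in each cell cannot be told apart. The 16 markers of mature adipocytes had a mean level between 3.73 and 5.50 on the HF75 arrays and between 2.75 and 5.48 on the LFC arrays, and Adipoq, which encodes the fat cell hormone adiponectin, was well above background on all 12.

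Fat cells make fatty acids from sugar in the cytosol. Citrate leaves the mitochondrion through Slc25a1 and is split by Acly into acetyl-CoA, Acaca turns acetyl-CoA into malonyl-CoA, Fasn builds palmitate from it, Elovl6 lengthens the chain and Scd1 puts a double bond into it. Srebf1 and Mlxipl are transcription factors that switch these genes on, and the pathway is known to run high on diets rich in carbohydrate and low on diets rich in fat. Slc2a5 is the transporter that brings fructose into the cell.

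The promoters of 3 enzymes and carriers of this pathway whose level was lower in HF75 in every week, and of Slc2a5, are shown because the results turn on these genes. They are the RefSeq promoters on GRCm38.p6, from 250 bases before to 50 bases after the start, written 5′ to 3′ on the strand of the gene. Capitals mark matches on either strand to the CCAAT box (CCAAT), the E-box (CACGTG), of the kind bound by Srebf1 and Mlxipl, and the GC box (GGGCGG), of the kind bound by Sp1.
Elovl6 promoter, chr3:129532136-129532435, plus strand: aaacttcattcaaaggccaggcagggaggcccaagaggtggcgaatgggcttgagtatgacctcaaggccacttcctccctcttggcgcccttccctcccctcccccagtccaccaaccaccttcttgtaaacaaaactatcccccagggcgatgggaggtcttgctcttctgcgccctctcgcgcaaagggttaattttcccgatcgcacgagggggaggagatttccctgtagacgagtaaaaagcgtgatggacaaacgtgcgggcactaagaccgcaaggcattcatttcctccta
Acly promoter, chr11:100527951-100528250, minus strand: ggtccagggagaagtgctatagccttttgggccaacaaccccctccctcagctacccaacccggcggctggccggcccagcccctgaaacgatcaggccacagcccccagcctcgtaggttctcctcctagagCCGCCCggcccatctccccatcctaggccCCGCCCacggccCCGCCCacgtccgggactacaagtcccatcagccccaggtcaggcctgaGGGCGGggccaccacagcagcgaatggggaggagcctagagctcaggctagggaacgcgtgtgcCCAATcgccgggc
Slc25a1 promoter, chr16:17928170-17928469, minus strand: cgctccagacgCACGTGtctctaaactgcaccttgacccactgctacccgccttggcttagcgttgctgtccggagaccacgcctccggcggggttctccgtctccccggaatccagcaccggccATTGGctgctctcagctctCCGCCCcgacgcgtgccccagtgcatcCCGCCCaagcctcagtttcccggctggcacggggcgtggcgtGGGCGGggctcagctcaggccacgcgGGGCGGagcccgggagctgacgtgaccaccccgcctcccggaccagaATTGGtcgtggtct
Slc2a5 promoter, chr4:150119094-150119393, plus strand: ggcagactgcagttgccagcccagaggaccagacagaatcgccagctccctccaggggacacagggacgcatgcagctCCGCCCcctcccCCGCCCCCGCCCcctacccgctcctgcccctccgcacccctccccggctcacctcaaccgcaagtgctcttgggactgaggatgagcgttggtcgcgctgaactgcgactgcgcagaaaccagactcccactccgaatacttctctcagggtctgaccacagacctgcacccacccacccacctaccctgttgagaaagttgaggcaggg

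No match overlapped a match to another motif in these sequences. The Elovl6 promoter held no match. The Acly promoter held 1 CCAAT box and 4 GC boxes, the Slc25a1 promoter held 2 CCAAT boxes, 1 E-box and 4 GC boxes, and the Slc2a5 promoter held 3 GC boxes. Of 32851 promoters of the same length, 37.4% held a CCAAT box, 7.15% an E-box and 35.7% a GC box. A promoter was found for 17 of the 20 tested genes of fatty acid synthesis, of which 52.9% held a CCAAT box, 11.8% an E-box and 52.9% a GC box. A match is a description of the letters and was not tested for binding.

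No gene passed an adjusted p of 0.05 between HF75 and LFC. The limma fit with week as a block called 0 of 18620 genes over 6 weeks and 0 without Week 3, and the smallest adjusted p was 0.999 in the first and 1.00 in the second. The methods' t-test also called 0 after Benjamini-Hochberg adjustment in both sets of weeks. At an unadjusted limma p under 0.05 there were 34 genes higher in HF75, which is 0.183% of the genes tested, and 333 genes lower, which is 1.79%. Without Week 3 there were 122 higher (0.655%) and 438 lower (2.35%), and the t-test gave 210 genes over 6 weeks and 220 without Week 3. The 367 and 560 genes of the limma fits are thus 1.97% and 3.01% of those tested. Both shares lie below that which an unadjusted p under 0.05 would give by chance alone. Each gene below is described by its values and not as a called change.

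More genes stood lower than higher in HF75 in both fits, and the lower ones were mostly dim. The lower genes had a median level of -3.89 against -0.41 for all genes tested, and 65 of the 333, or 19.5%, were well above background on all 12 arrays, against 70.1% of all genes tested. The higher genes had a median level of -1.84, with 18 of 34, or 52.9%, above background throughout. With quantile normalization the split became 87 higher and 244 lower, and with each array scaled to its median it became 61 and 236. Without Week 3 these splits were 191 and 325, and 203 and 341. Leaving out Weeks 3 and 18 reversed the split of the limma fit, to 339 higher and 256 lower. Scaling to the median moved the median difference of all genes from -0.01 to 0.13 over 6 weeks, and from -0.00 to 0.08 without Week 3. A background correction by normexp with an added offset of 50 left 16 higher and 152 lower, so the normexp value is given below beside the dim genes that it moved most. The offset by itself shrinks the differences of dim spots, and its part was not separated from that of the correction.

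Few genes separated the diets completely. No gene was higher on every HF75 array than on every LFC array, and 3 genes (0.0161%) were lower, namely Gm11295, Igh-6, which encodes the heavy chain of immunoglobulin M, and Nps, which encodes neuropeptide S. They are named because they are the whole count, which was seen first. The HF75 levels of Nps lay between -4.88 and -4.32 (median -4.46), and its LFC levels between -3.91 and -2.62 (median -3.62), a difference of -1.1 (SE 0.32, unadjusted p = 0.00839, adjusted p = 0.999), which normexp reduced to -0.40. Gm11295, which the array names only by this number, lay between -4.24 and -2.92 in HF75 and between -2.77 and 4.02 in LFC. Its difference was -2.95 (SE 0.89, unadjusted p = 0.0102), its other probe gave -3.02, normexp gave -1.82, and without Week 12 it was -1.98. Without Week 3, 5 genes (0.0269%) were higher on all HF75 arrays and 20 (0.107%) were lower.

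The arrays of Week 3 and Week 12 stood apart. The HF75 array of Week 3 carried transcripts of skeletal muscle: the 32 tested muscle markers had a mean level of 6.96 there, against -3.33 to -0.65 on the other HF75 arrays and -3.35 to -0.04 on the LFC arrays. Its 25 immediate early genes had a mean level of 0.03, against 3.91 to 4.38 on the other HF75 arrays, and 49.3% of its spots were well above background, the lowest share of the 12. The LFC array of Week 3 had the highest mean level of the 20 lymphocyte markers, 2.91. On the LFC array of Week 12 the immediate early genes were at -0.29, against 3.07 to 4.53 on the other LFC arrays, and the fatty acid synthesis genes were at 5.00, the highest mean level of the 12. The 2 arrays of a pair were scanned on the same day in 4 of the 6 weeks, with Weeks 6 and 12 the exceptions, and never lay on the same slide. The results that turned most on Week 12 are also given without that week.

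**Figure D1:**
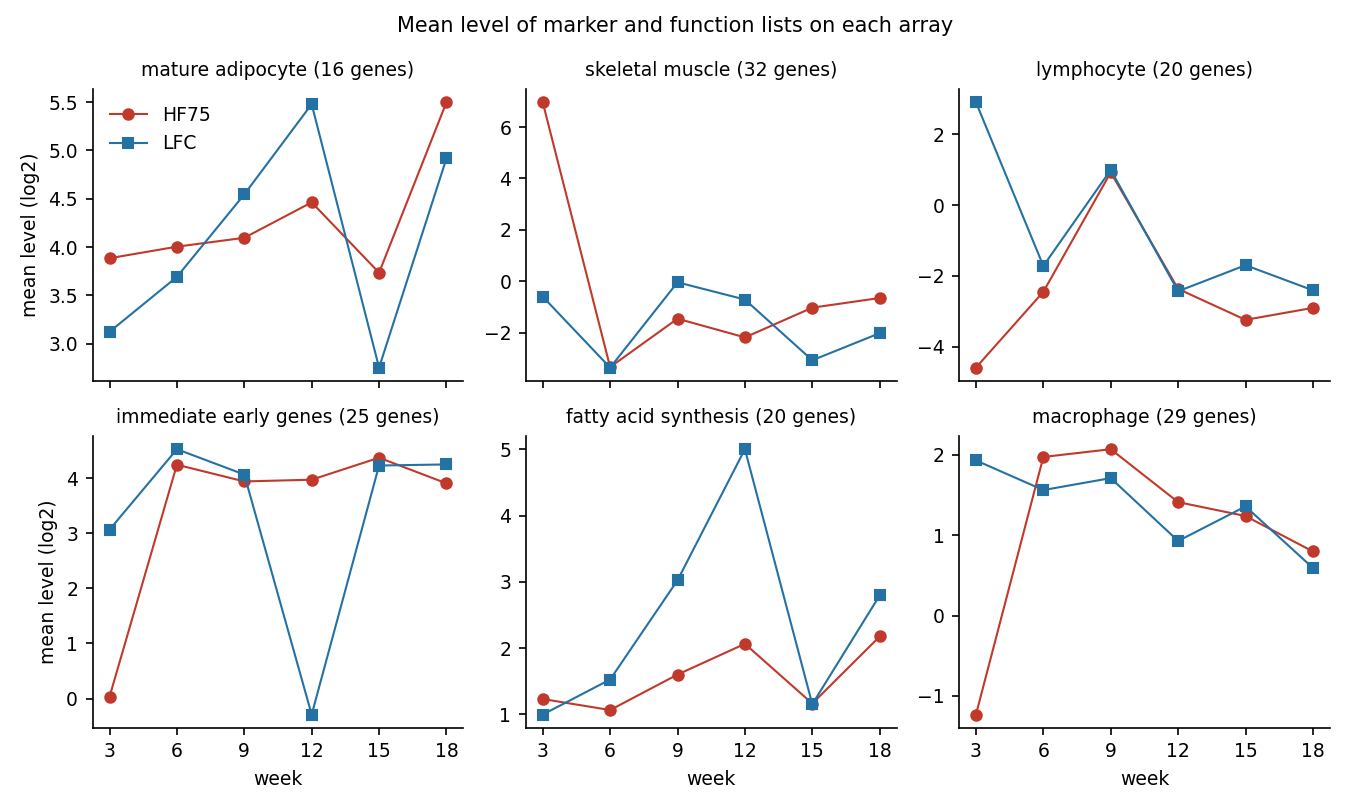
Mean log2 level (0 is the 75th percentile of the array) of the tested genes of 6 lists on each array by week, with HF75 as red circles and LFC as blue squares. The HF75 array of Week 3 is high in skeletal muscle (6.96) and low in immediate early genes (0.03), and the LFC array of Week 12 is low in immediate early genes (-0.29) and high in fatty acid synthesis (5.00).

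Fatty acid synthesis was the list with the lowest median difference without Week 3. Of 23 listed genes, all on the array, 20 were tested, and 19 had a difference below 0 over 6 weeks and 20 without Week 3. Their median difference was -0.69 over 6 weeks and -0.92 without Week 3, against -0.01 and -0.00 for all genes tested. At an unadjusted p under 0.05, 6 were lower and 0 higher, and without Week 3 there were 7 lower and 0 higher, beside the shares of all genes given above. None passed the adjusted test in limma. The level was lower in every week for 4 of the 20, where 1.19% of all genes were, and in all 5 weeks without Week 3 for 7, where 2.52% were, and higher throughout for 0 (0.371% and 1.31% of all genes). A difference of at least 2-fold toward lower levels was seen for 7 of the 20 (3.93% of all genes) and, without Week 3, for 9 (3.28%), and toward higher levels for 0 (1.49% and 2.57%). The difference lay in certain weeks: the median of the 20 genes was -0.00 at Week 3, -0.30 at Week 6, -1.67 at Week 9, -2.96 at Week 12, -0.05 at Week 15 and -0.58 at Week 18. It was -0.50 without Week 12 and -0.66 without Weeks 3 and 12. With scan day as a block the median was -0.41 over 6 weeks and -0.64 without Week 3. On the LFC arrays the mean level of the list ran from 1.00 to 5.00 (median 2.16), and on the HF75 arrays from 1.07 to 2.18 (median 1.42).

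**Figure D2:**
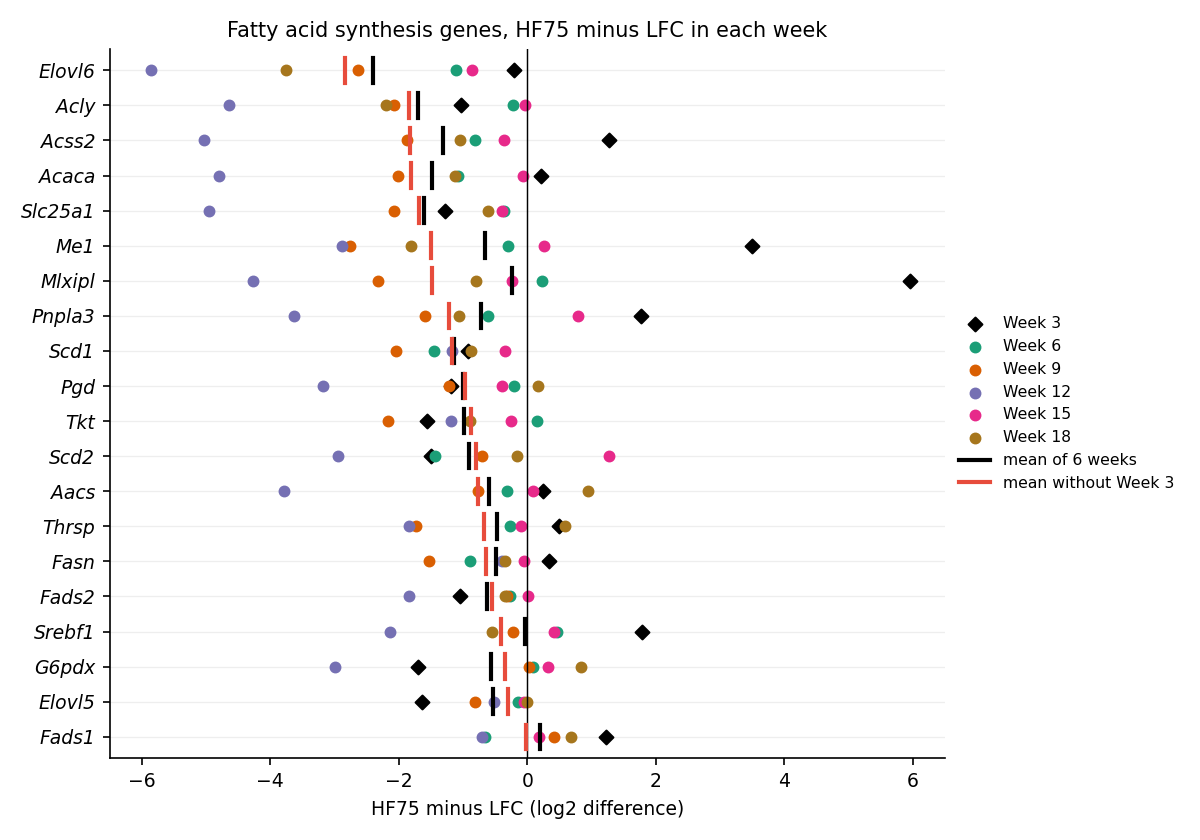
HF75 minus LFC (log2 difference) of the 20 tested fatty acid synthesis genes in each week, with Week 3 as a black diamond, other weeks as coloured circles, a black bar at the mean of 6 weeks and a red bar at the mean without Week 3. Most genes have their lowest value at Week 12, and Elovl6, Acly, Slc25a1 and Scd1 lie below 0 in all 6 weeks.

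Scd1, the desaturase that makes oleic acid, had the smallest unadjusted p of the list over 6 weeks, and leaving out Week 3 or Week 12 hardly moved its value. Its level in HF75 ran from 2.42 to 5.56 (median 3.53), and in LFC from 3.34 to 6.44 (median 5.22). The groups overlapped, with both diets lowest at Week 3 and highest at Week 18, but the HF75 array was the lower in 6 of 6 weeks. The weekly differences were -0.92, -1.46, -2.04, -1.17, -0.35 and -0.88 in the order of the weeks. The difference was -1.14 (SE 0.31, unadjusted p = 0.00580, adjusted p = 0.999), which is 2.20-fold, and -1.18 (SE 0.32, unadjusted p = 0.00722) without Week 3. It was -1.13 without Week 12, -1.12 with normexp and -1.05 with scan day as a block. Scd1 had 1 probe, saturated on 1 of the 6 LFC arrays.

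Elovl6, which lengthens palmitate to stearate, had a narrow range in HF75 and a wide one in LFC. HF75 levels ran from -1.04 to 0.20 (median -0.45), and LFC levels from -0.22 to 6.05 (median 1.38). Without Week 3 the highest HF75 level, 0.20, lay above the lowest LFC level, 0.07, so the groups still overlapped. The weekly differences were -0.21, -1.11, -2.64, -5.85, -0.86 and -3.76, so HF75 was the lower in 6 of 6 weeks. The mean was -2.40 (SE 0.72, unadjusted p = 0.0101), which is 5.30-fold, and -2.84 (SE 0.72, unadjusted p = 0.00484) without Week 3. Without Week 12 it was -1.72, and with array quality weights -1.70 over 6 weeks and -1.77 without Week 3. The spot of Elovl6 was saturated on 1 of the 6 LFC arrays, so its level there may be too low.

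The steps before Elovl6 gave values on the same side. Slc25a1, the citrate carrier, ran from -2.43 to 0.97 in HF75 (median 0.28) and from -1.15 to 5.49 in LFC (median 0.99). Its difference was -1.61 (SE 0.61, unadjusted p = 0.0298; -1.68 without Week 3), with HF75 lower in 6 of 6 weeks, and it was -0.95 without Week 12. Acly, which frees acetyl-CoA from citrate, ran from -0.51 to 1.02 in HF75 (median 0.70) and from 0.44 to 5.39 in LFC (median 1.99). Its difference was -1.70 (SE 0.60, unadjusted p = 0.0209; -1.84 without Week 3), also lower in 6 of 6 weeks, with -0.04 at Week 15 as the weakest, and it was -1.11 without Week 12. Acaca, the rate-limiting carboxylase, was lower in 5 of 6 weeks, with 0.21 at Week 3 the exception. Its difference was -1.48 (SE 0.63, unadjusted p = 0.0458; -1.82 without Week 3) and -0.82 without Week 12, and its 3 other probes gave -1.08, -1.56 and -1.20. With array quality weights, which give noisier arrays less part in the fit, Slc25a1 was at -0.93 and Acly at -0.86, and with scan day as a block Acaca was at -0.75.

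Fasn depended on the probe. The brighter probe, which the rule used and which was saturated on 1 array of each diet, ran from 4.78 to 6.63 in HF75 and from 4.54 to 8.0 in LFC and gave -0.48 (SE 0.32, unadjusted p = 0.174), or -0.65 (unadjusted p = 0.0741) without Week 3. Without Week 9 that probe gave -0.27. The other Fasn probe, well above background on all 12 arrays, gave -1.68 and, without Week 3, -2.07, with HF75 lower in 5 of 6 weeks on both probes. Acss2, which makes acetyl-CoA from acetate, was at -1.31 (unadjusted p = 0.104) over 6 weeks and at -1.82 (SE 0.66, unadjusted p = 0.0270) without Week 3, when it was lower in 5 of 5 weeks and its other probe gave -1.84. Without Week 12 Acss2 was at -0.56, and with scan day as a block at -0.50.

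The pentose phosphate pathway and malic enzyme supply NADPH to the synthesis. Tkt, the transketolase of the branch of the pathway that makes no NADPH, was at -0.98 (SE 0.37, unadjusted p = 0.0271; -0.87 without Week 3), and its second probe at -1.88, with -0.47 under array weights. Tkt was saturated on 1 LFC array, as were Me1, Srebf1 and Thrsp. Of the enzymes of the branch that makes it, Pgd was at -1.0 (unadjusted p = 0.0580), or -0.57 without Week 12, and G6pdx was at -0.57 (SE 0.53, unadjusted p = 0.312) with HF75 higher in 4 of 6 weeks. Me1, malic enzyme, was at -0.66 (unadjusted p = 0.434) over 6 weeks, with 3.50 at Week 3, and at -1.50 (SE 0.53, unadjusted p = 0.0239) without that week. Without Week 12 Me1 was at -0.22.

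The transcription factors of the pathway had weekly differences on both sides of 0. Srebf1 ran from 3.11 to 4.46 in HF75 and from 2.68 to 5.87 in LFC, with a difference of -0.04 (SE 0.48, unadjusted p = 0.931) and 3 of 6 weeks on each side. The Srebf1 difference turned to 0.38 without Week 12 and to 0.10 with each array scaled to its median, and was -0.41 without Week 3. Mlxipl, the carbohydrate response factor, was at -0.24 (SE 1.13, unadjusted p = 0.836), the mean of weekly values that ran from -4.27 at Week 12 to 5.95 at Week 3, and at -1.48 (SE 0.65, unadjusted p = 0.0547) without Week 3. Mlxipl turned to 0.56 without Week 12 and to 0.65 with scan day as a block. Thrsp, a nuclear protein of lipogenic tissue, was at -0.48 (unadjusted p = 0.288), and at -0.21 without Week 12.

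Slc2a5, the fructose transporter, gave the lowest value of the sugar transport list. Its levels in HF75 ran from -4.57 to -2.93 (median -4.46), and in LFC from -4.69 to 4.59 (median -1.15). The weekly differences were 0.12, -1.83, -4.86, -8.13, -1.29 and -4.29, so that LFC was the higher in 5 of 6 weeks and HF75 stayed low throughout. The difference was -3.38 (SE 0.98, unadjusted p = 0.00865) and -4.08 (SE 0.93, unadjusted p = 0.00279) without Week 3, or -3.07 without Weeks 3 and 12. Slc2a5 cleared the background flag on 4 HF75 arrays of 6 and on all 6 LFC arrays, and normexp gave -1.98 and, without Week 3, -2.52. The list of 26 glucose transport and insulin signalling genes had a median of 0.08, or -0.27 without Week 3, and of 0.28 without Week 12. With another week left out beside Week 3 it lay between -0.37 and -0.14.

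**Figure D3:**
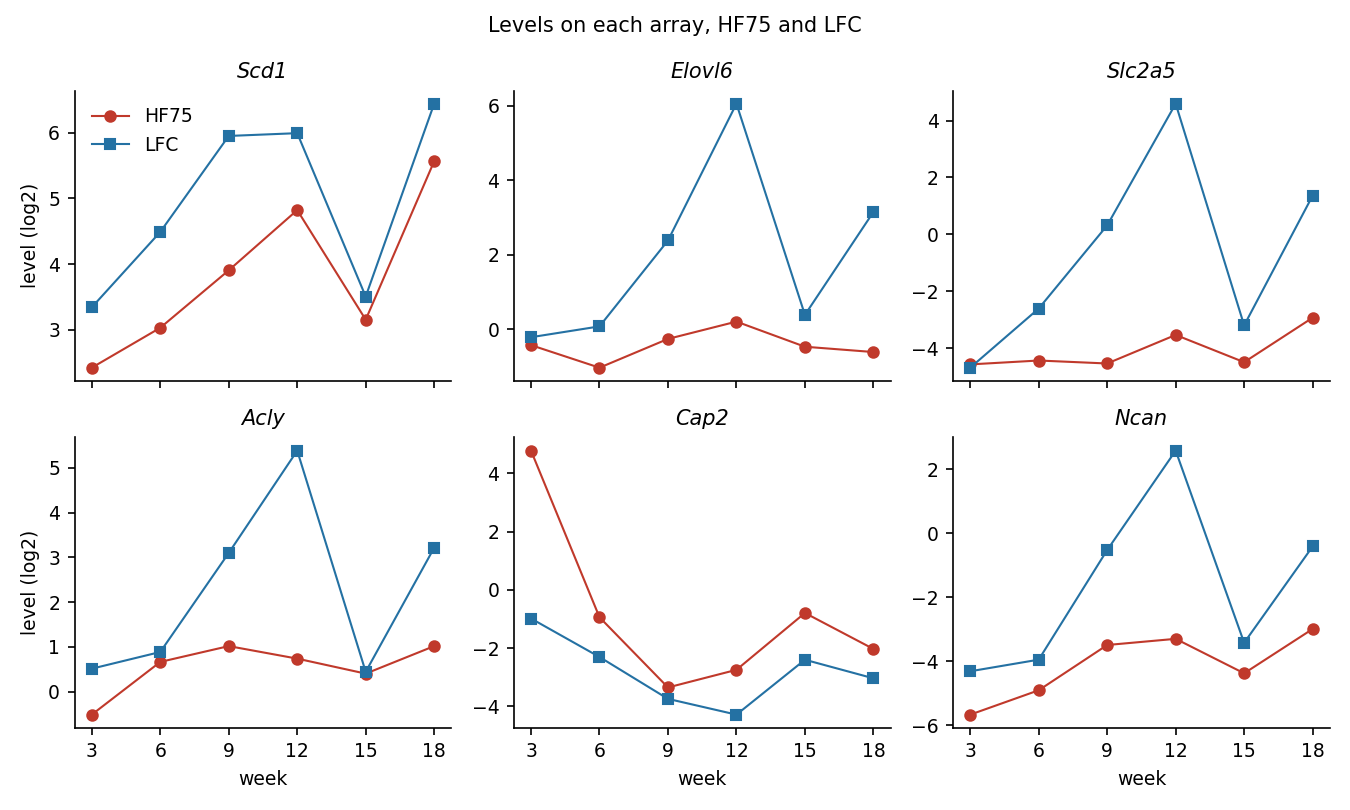
Log2 levels (0 is the 75th percentile of the array) of 6 genes on each array by week, HF75 as red circles and LFC as blue squares. Scd1 is lower in HF75 at each week while both diets vary, Elovl6, Slc2a5, Acly and Ncan are high in LFC at Weeks 9, 12 and 18, and Cap2 is higher in HF75 at each week with its highest level at Week 3.

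Cholesterol synthesis lay below 0 as a whole, but with fewer single genes past the unadjusted threshold. All 24 listed genes were tested and 24 of 24 were below 0, or 23 of 24 without Week 3, and the median was -0.59, or -0.62 without Week 3. Over 6 weeks 1 gene had an unadjusted p under 0.05, and without Week 3 there were 0 by limma, beside 1.79% and 2.35% of all genes on the lower side. Cyp51, lanosterol demethylase, was lower in 6 of 6 weeks, at -1.20 (SE 0.47, unadjusted p = 0.0326) and at -0.85 without Week 3, with -0.58 under normexp and -0.68 under array weights. Its other probes gave -0.70 and -0.66 and were lower in 4 and 5 of 6 weeks. The median of the list was -2.29 at Week 12, the lowest of any week, and 0.23 at Week 15. It was -0.31 without Week 12 and -0.17 without Weeks 3 and 12. Array weights gave -0.27 over 6 weeks and -0.26 without Week 3, and scan day as a block gave -0.33 and -0.19.

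Genes of stored fat had medians near that of all genes over 6 weeks, which moved with the weeks left out. The 26 genes of fatty acid uptake and triglyceride synthesis had a median of -0.02 (-0.10 without Week 3), the 17 lipolysis genes -0.01 (0.04) and the 16 mature adipocyte markers 0.09 (0.05). With any 1 week left out they lay between -0.12 and 0.17, between -0.25 and 0.09 and between 0.05 and 0.39, each highest without Week 12. With Week 3 and another week left out they lay between -0.28 and 0.23, between -0.28 and 0.30 and between -0.14 and 0.26, again highest without Week 12. Adipoq, the adiponectin gene, was at 0.53 (SE 0.51, unadjusted p = 0.328), Cidec, which fuses lipid droplets, at 0.70 (SE 0.46, unadjusted p = 0.170) and Plin4, a droplet coat protein, at 0.80 (SE 0.40, unadjusted p = 0.0785). Without Week 3 Adipoq was at 0.73, Cidec at 0.91 and Plin4 at 0.50. Cidec was higher in 3 of 6 weeks and Plin4 in 5 of 6. Adipoq turned on Week 15, at 3.10 in that week and at 0.0166 without it, and Cidec was at 0.34 without Week 15. Each of the 3 was saturated on 1 LFC array, and Cidec also on 2 HF75 arrays.

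Markers of fat expansion differed little from the lean control as a list. The 29 genes of the adipokine and fat expansion list had a median of 0.10, or 0.06 without Week 3, with 0 genes higher and 1 lower at an unadjusted p under 0.05 over 6 weeks (0.183% and 1.79% of all genes). With 1 week left out the median lay between -0.02 (without Week 18) and 0.19 (without Week 12), and with Week 3 and another week left out between -0.08 and 0.19. Lep, which encodes leptin, ran from -2.23 to 0.16 in HF75 (median -1.36) and from -3.23 to 1.77 in LFC (median -1.58), a difference of 0.39 (SE 0.44, unadjusted p = 0.406), or 0.79 without Week 12, 0.18 without Week 3, 0.20 without Week 18 and 0.18 with normexp. Mest, an imprinted gene that marks growing fat cells, was at 0.18 (SE 0.33, unadjusted p = 0.596), or 0.35 without Week 3, 0.0519 without Week 12 and 0.0216 without Week 18, and Sfrp5, a secreted Wnt inhibitor of growing fat, at -0.02 (SE 0.34, unadjusted p = 0.945), or 0.13 without Week 3. The Mest difference turned to -0.25 with slide as a random block over 30 arrays, and that of Sfrp5 to 0.31 with quantile normalization. Igfbp2, which binds insulin-like growth factors, was the member that was lower, at -1.27 (SE 0.49, unadjusted p = 0.0320), but it was above background on 2 of 6 HF75 arrays and normexp gave -0.13.

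HFC, the high-fat diet without KAL-1, gives the values beside which these stand. HFC minus LFC and HF75 minus LFC share the LFC arrays, so their values are only set side by side, and the difference itself is that of HF75 minus HFC in a fit of 30 arrays. In that limma fit 0 of 18620 genes passed an adjusted p of 0.05 for HFC against LFC, and 0 for HF75 against HFC. HFC minus LFC was 1.81 for Lep, 2.09 for Mest and 1.44 for Sfrp5. HF75 minus HFC was -1.43 (SE 0.87, unadjusted p = 0.115) for Lep, -1.91 (SE 0.54, unadjusted p = 0.00187) for Mest and -1.47 (SE 0.51, unadjusted p = 0.00909) for Sfrp5, each with an adjusted p of 0.866. Without Week 3 HFC minus LFC was 0.92 for Lep, 1.58 for Mest and 1.62 for Sfrp5, and HF75 minus HFC was -0.74 (unadjusted p = 0.406), -1.23 (unadjusted p = 0.0277) and -1.49 (unadjusted p = 0.0218). For Elovl6 HFC minus LFC was -2.09 and HF75 minus HFC was -0.31 (SE 0.67, unadjusted p = 0.646), and without Week 3 these were -3.00 and 0.15 (unadjusted p = 0.805), so the second turned sign. For Acly the values were -1.56 and -0.15 (SE 0.61, unadjusted p = 0.814), and without Week 3 they were -2.28 and 0.44 (unadjusted p = 0.460), so again the second turned. For Slc2a5 they were -4.25 and 0.87 (SE 1.17, unadjusted p = 0.463), and -5.90 and 1.82 (unadjusted p = 0.0890) without Week 3. For Scd1 they were -0.30 and -0.83 (SE 0.69, unadjusted p = 0.241), and -0.92 and -0.26 (unadjusted p = 0.727) without Week 3. The median of the fatty acid synthesis list was -0.29 for HFC minus LFC and -0.38 for HF75 minus HFC, and -1.11 and 0.13 without Week 3.

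**Figure D4:**
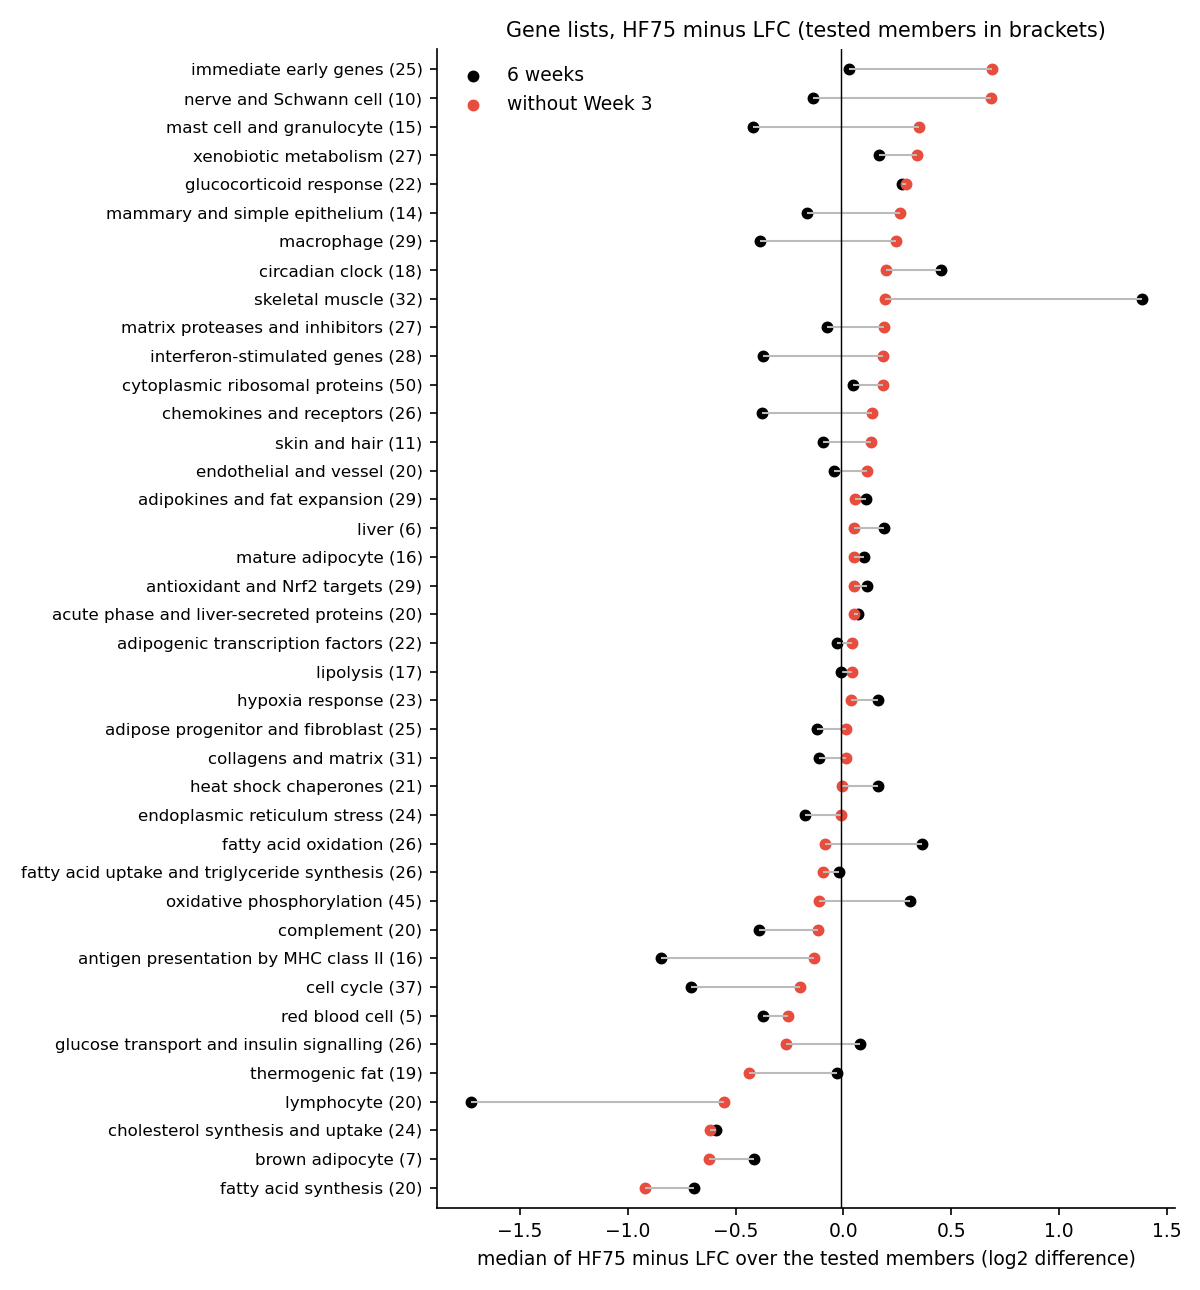
Median HF75 minus LFC (log2 difference) over the tested genes of each of 40 lists, with the number of tested genes in brackets, over 6 weeks (black) and without Week 3 (red), and a line at the median of all genes tested. Lymphocyte (-1.73 to -0.55) and skeletal muscle (1.38 to 0.19) move most when Week 3 is left out, while fatty acid synthesis (-0.69 and -0.92) and cholesterol synthesis (-0.59 and -0.62) lie below 0 in both.

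Oxidative genes were high on the HF75 array of Week 3, as the muscle markers were, and the part of muscle in their values was not tested. The mean level of fatty acid oxidation was 3.07 there and 3.21 on the LFC array of Week 12. On the LFC arrays the muscle markers ran from -3.35 to -0.04. The 45 oxidative phosphorylation genes had a median of 0.31 with 43 above 0 over 6 weeks, and of -0.11 with 10 above 0 without Week 3, which turned to 0.22 without Week 12 as well and was -0.39 without Week 18 as well. Over the other 5 weeks without Week 12 it was 0.70. The 26 fatty acid oxidation genes had a median of 0.36 over 6 weeks, of 2.60 at Week 3 and of -0.09 without that week. It was 0.75 without Week 12, and with Week 3 and another week left out it lay between -0.41 (Week 18) and 0.21 (Week 12). The 32 muscle markers themselves had a median of 1.38, or 0.19 without Week 3, and then differed by week from -1.90 at Week 12 to 1.83 at Week 15, the median turning to -0.51 without Week 15 as well, to -0.21 without Week 18 as well and to -0.17 with normexp. Array weights reduced the median over 6 weeks to 0.48. Acta1, skeletal muscle actin, was at 1.23 over 6 weeks and at 0.33 without Week 3, and Ckm, muscle creatine kinase, was at 1.53 and at -0.01, with 9.26 at Week 3 2.71 as its mean without Week 12 and 0.85 with normexp. Ckm was well above background on 5 HF75 and 4 LFC arrays, and Acta1 and Ckm were each saturated on 1 HF75 array.

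Thermogenic genes differed in sign between weeks. The 19 tested genes of thermogenic fat had a median of -0.03, or -0.44 without Week 3, and the 7 tested brown adipocyte markers -0.41, or -0.62. With 1 week left out the first lay between -0.44 (Week 3) and 0.09 (Week 12), and the second between -1.03 (Week 18) and -0.08 (Week 9). With Week 3 and another week left out they lay between -0.63 and -0.15 and between -1.1 and -0.15, each highest without Week 12. Array weights turned the first without Week 3 to 0.15 and the second over 6 weeks to 0.04. Ucp1, the uncoupling protein of brown and beige fat, ran from -3.36 to 1.25 in HF75 and from -3.91 to 3.08 in LFC, with 3 of 6 weeks on each side. Its difference was -0.41 (SE 0.86, unadjusted p = 0.642) over 6 weeks, 0.08 without Week 3 and 0.09 without Week 12. Cidea, a lipid droplet protein of brown and beige fat, was lower in 6 of 6 weeks, at -1.08 (SE 0.47, unadjusted p = 0.0513), and at -1.25 (SE 0.50, unadjusted p = 0.0396) without Week 3. For Cidea the weeks that stood out were Weeks 9 and 12, at -2.77 and -2.65, and 1 LFC array was saturated.

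Lymphocyte markers had the lowest median of all lists over 6 weeks, most of it from Week 3. Of 26 listed markers 20 were tested, and all 20 were below 0 over 6 weeks (median -1.73), of which 2 had an unadjusted p under 0.05, as did 1.79% of all genes on the lower side. The median was -7.86 at Week 3, where the LFC array held the most lymphocyte transcripts and the HF75 array the fewest. On that HF75 array the markers had a mean level of -4.59, below -3.83, its lowest level well above background. The Week 3 value is thus set in part against spots too dim to measure. Without Week 3 the median was -0.55, with 18 of 20 below 0 and 1 at an unadjusted p under 0.05, beside 2.35% of all genes. Array weights gave -0.90 over 6 weeks. The part of these markers in other immune results was not tested.

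Cd8b1, a chain of the CD8 co-receptor of cytotoxic T cells, ran from -7.68 to -1.76 in HF75 (median -5.77) and from -4.65 to 0.52 in LFC (median -4.42). It was lower in 6 of 6 weeks, at -2.29 (SE 0.74, unadjusted p = 0.0141), and at -1.49 (SE 0.42, unadjusted p = 0.00850) without Week 3. Only 1 of 6 HF75 arrays had Cd8b1 above background, against 5 of 6 LFC arrays, and normexp gave -0.95. Igh-6, the immunoglobulin heavy chain gene whose levels did not overlap, ran from -5.93 to -1.53 in HF75 and from -1.29 to 0.90 in LFC. Its difference was -2.31 (SE 0.78, unadjusted p = 0.0171), with -5.83 at Week 3 and -4.55 at Week 15, and it was -1.61 without Week 3 and -1.42 with normexp. The T cell transcription factors Bcl11b, at -2.29 (unadjusted p = 0.0422), and Tcf7, at -2.12 (unadjusted p = 0.0427), were lower in 6 of 6 weeks, with -7.22 and -7.13 at Week 3. Bcl11b cleared the background on 3 of 6 HF75 and 5 of 6 LFC arrays, and Tcf7 on 4 and 6. Their HF75 levels at Week 3, -6.14 and -5.36, lay below -3.83, the lowest level well above background on that array, as did those of Cd8b1 and Igh-6, so the Week 3 differences of these genes are set against spots too dim to measure. Without Week 3 Bcl11b was at -1.30 and Tcf7 at -1.12. Normexp over 6 weeks gave -1.24 for Bcl11b and -1.12 for Tcf7. The other probe gave -1.08 for Bcl11b and -1.19 for Tcf7, or -0.37 and -0.67 without Week 3, and each was lower in 5 of 6 weeks.

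The median of the macrophage markers turned from below to above 0 when Week 3 was left out. The 29 tested markers had a median of -0.39 with 24 below 0 over 6 weeks, and of 0.25 with 21 above 0 without Week 3. Array weights also turned the median over 6 weeks, to 0.0405, and with Week 3 and another week left out it lay between 0.12 (Week 9) and 0.36 (Week 15). Emr1, the F4/80 antigen, was at -0.39 (SE 0.47, unadjusted p = 0.432) and then at 0.08, and its other probe was at 0.15 over 6 weeks. Cd68, of macrophage lysosomes, was at -0.23 (SE 0.63, unadjusted p = 0.718) and then at 0.44, and at -0.47 without Week 12. Itgax, the CD11c chain found on macrophages of obese fat, was at -0.93 (SE 0.89, unadjusted p = 0.324) and then at 0.01, at -1.54 without Week 12 and at -0.47 with normexp. Spp1, osteopontin, was at 0.33 (unadjusted p = 0.698) over 6 weeks and at 1.23 (SE 0.46, unadjusted p = 0.0290) without Week 3, with HF75 higher in 4 of 5 weeks, and it turned to -0.17 without Week 12. Ccl2, which draws monocytes into tissue, was at 0.70 (SE 1.27, unadjusted p = 0.595), from -5.05 at Week 3 to 6.04 at Week 12, and turned to -0.37 without Week 12, with 1 LFC array saturated.

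Other immune and stress lists gave values of the same kind. The 28 interferon-stimulated genes had a median of -0.37 with 27 below 0 over 6 weeks (-0.71 without Week 12) and of 0.18 without Week 3, which turned to -0.19 without Weeks 3 and 12, to -0.25 with array weights and to -0.05 with scan day as a block. The 16 genes of antigen presentation by MHC class II were at -0.85 and, without Week 3, at -0.13, which turned to 0.25 without Week 15 as well. Array weights gave -0.46 for them over 6 weeks. The 20 complement genes were at -0.39 and -0.12, or -0.10 over 6 weeks with array weights, and C6, a terminal complement component, at -0.91 (SE 0.39, unadjusted p = 0.0471), with -0.29 under normexp. The 25 immediate early genes were at 0.03 over 6 weeks and at 0.69 without Week 3, with 3.89 at Week 12, and at -0.79 without Week 12 and -0.18 without Weeks 3 and 12. Il13, a type 2 cytokine, was at -1.53 (unadjusted p = 0.0157) and, without Week 3, at -1.91 (SE 0.45, unadjusted p = 0.00316) with HF75 lower in 5 of 5 weeks, but it was above background on 1 of 6 HF75 arrays, and normexp gave -0.28 and -0.48. Kit, the stem cell factor receptor of mast cells, was lower in 6 of 6 weeks, at -0.74 (SE 0.30, unadjusted p = 0.0370), and normexp gave -0.40. Of its other probes 1 gave -0.74 and the other -0.35, lower in 5 of 6 weeks.

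Matrix genes and dividing cells were near or below the control. The 31 collagen and matrix genes had a median of -0.11, or 0.01 without Week 3, -0.32 without Week 9, -0.29 with array weights and 0.03 with each array scaled to its median, against 0.79 for HFC minus LFC. The 37 cell cycle genes were at -0.70 with 32 below 0 over 6 weeks, with -3.75 at Week 3, and at -0.20 without that week, and array weights gave -0.32 over 6 weeks. With Week 3 and another week left out their median lay between -0.37 (Week 12) and -0.115 (Week 9). Bub1, a mitotic checkpoint kinase, ran from -3.02 to -0.16 in HF75 (median -2.12) and from -1.66 to 0.14 in LFC (median -1.22). It was at -0.90 (SE 0.32, unadjusted p = 0.0233) and at -1.09 (SE 0.30, unadjusted p = 0.00753) without Week 3, but its other probe gave -0.61 and 0.04. Hmmr, a spindle protein, was at -1.35 (SE 0.44, unadjusted p = 0.0143), with -0.29 under normexp and 2 of 6 HF75 arrays above background. For Hmmr HF75 minus HFC was -1.39 (SE 0.35, unadjusted p = 0.000640, adjusted p = 0.866), and -1.47 without Week 3. Its other probe, above background on 1 of 12 arrays, gave -0.22 against LFC.

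Of the genes named by the rule as higher in HF75 in each of 6 weeks, Cap2 had the largest difference. Cap2, an actin-binding protein abundant in heart and skeletal muscle, ran from -3.35 to 4.78 in HF75 (median -1.49) and from -4.29 to -0.99 in LFC (median -2.72). The weekly differences were 5.76, 1.36, 0.39, 1.54, 1.61 and 1.01, so Week 3 held the highest. Cap2 was at 1.95 (SE 0.66, unadjusted p = 0.0183) and at 1.18 (SE 0.30, unadjusted p = 0.00459) without Week 3, when normexp gave 0.66, and its other probe gave 1.96 and 1.20. HF75 minus HFC for Cap2 was 2.10 (SE 0.74, unadjusted p = 0.00942, adjusted p = 0.866), and 1.12 (unadjusted p = 0.101) without Week 3. Mef2c, a transcription factor of muscle and vessels, was at 0.81 (SE 0.33, unadjusted p = 0.0379) and at 0.55 without Week 3, and Srpk3, a kinase of muscle, at 0.92 (SE 0.32, unadjusted p = 0.0196), with 0.25 under normexp. Cap2 and Mef2c were highest at Week 3, whose HF75 array carried muscle transcripts, while Srpk3 moved little without that week, to 0.80. The part of muscle in these genes was not tested.

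Prkg1, the cGMP-dependent kinase that relaxes smooth muscle, was at 1.40 (SE 0.40, unadjusted p = 0.00768) and at 1.04 (SE 0.29, unadjusted p = 0.00834) without Week 3, with 0.81 under normexp over 6 weeks. Lsm14b, an RNA-binding protein, ran from -0.84 to 1.79 in HF75 (median 0.11) and from -1.29 to 0.53 in LFC (median -1.07). Its difference was 1.01 (SE 0.29, unadjusted p = 0.00846) and, without Week 3, 0.96 (SE 0.30, unadjusted p = 0.0146), but its other probe, above background on 3 of 12 arrays, gave -0.44. Tef, a clock-controlled transcription factor, was higher in 6 of 6 weeks, at 0.95 (SE 0.37, unadjusted p = 0.0324; 0.62 without Week 3), with 0.50 and 0.48 on its 2 other probes, which were lower in HF75 in 4 and 1 of the 6 weeks and gave 0.21 and 0.17 without Week 3. Dbp, of the same family, was at 0.63 (unadjusted p = 0.118) and at 0.85 (SE 0.34, unadjusted p = 0.0385) without Week 3. The 18 tested clock genes had a median of 0.45, or 0.20 without Week 3, which array weights turned to -0.04 and -0.09 and leaving out Weeks 3 and 12 to -0.07. The time of day at which tissue was taken is not given in the labels. Aldh1a1, a retinal dehydrogenase of fat, was at 1.1 (SE 0.40, unadjusted p = 0.0247; 0.91 without Week 3) with HF75 higher in 5 of 6 weeks, and at 0.43 with array weights. The small GTPase Rnd2 was at 0.98 (unadjusted p = 0.0243), Samd4, an RNA-binding repressor, at 0.99, the guanine nucleotide exchange factor Arhgef10l at 0.92 and Fam110b at 0.85, and the other probe of Samd4 gave 0.31, which turned to -0.23 without Week 3. Without Week 3 Samd4 was at 0.57 and Arhgef10l at 0.55, and normexp gave 0.18 for Fam110b. Samd4 and Tef were highest at Week 3, at 3.06 and 2.59, against at most 0.92 and 1.05 in the other weeks. Prkg1 and Arhgef10l were also highest in that week. The part of the muscle transcripts of the Week 3 array in these genes was not tested.

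**Figure D5:**
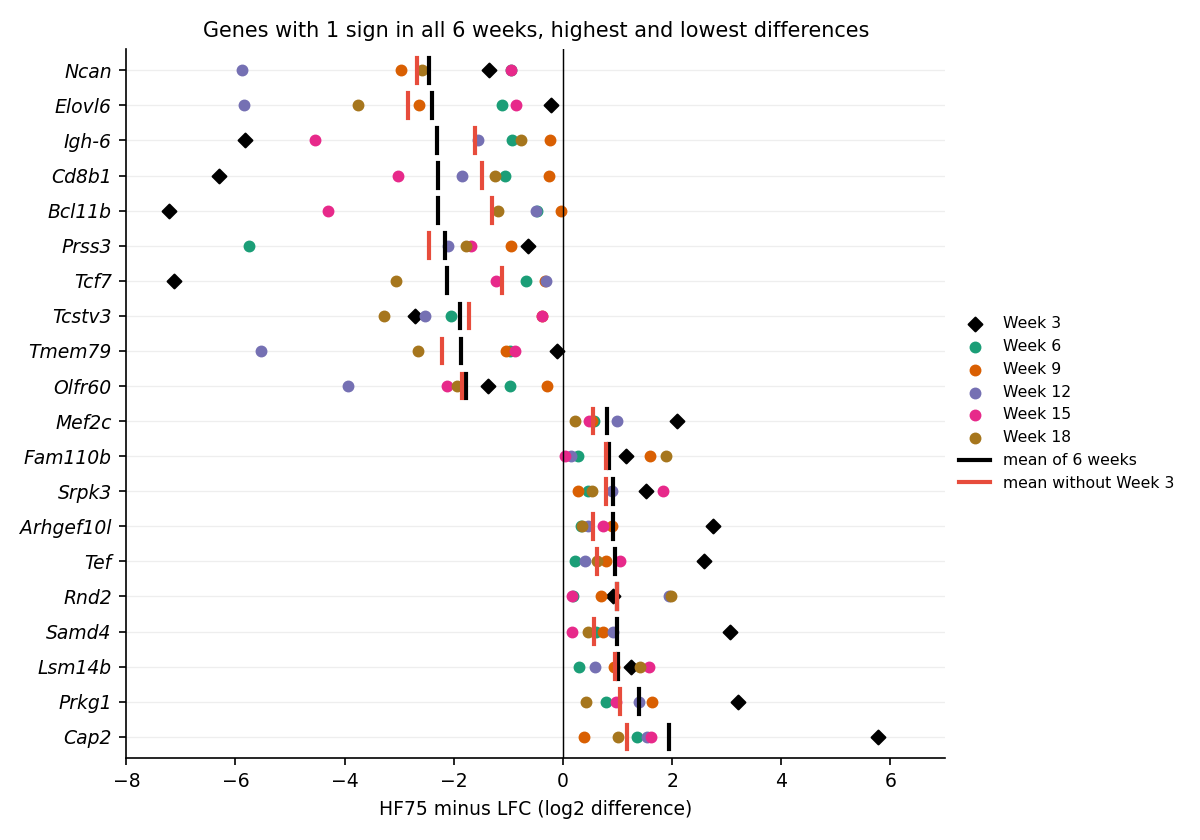
HF75 minus LFC (log2 difference) in each week for the 10 lowest and the 10 highest genes with the same sign in all 6 weeks and an unadjusted p under 0.05, with Week 3 as a black diamond, a black bar at the mean of 6 weeks and a red bar at the mean without Week 3. Week 3 is the extreme week of Cd8b1, Bcl11b, Tcf7 and Igh-6 and of Cap2, Prkg1, Samd4, Tef, Arhgef10l and Mef2c. Week 12 is that of Ncan, Elovl6, Tmem79 and Olfr60.

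Genes lower in HF75 in every week were 222, or 1.19% of those tested, against 69 higher, or 0.371%. Ncan, a proteoglycan of nervous tissue, had the lowest difference of those the rule named. Its level ran from -5.67 to -2.99 in HF75 (median -3.94) and from -4.31 to 2.59 in LFC (median -1.97). The weekly differences were -1.36, -0.96, -2.97, -5.89, -0.96 and -2.58, and the mean was -2.45 (SE 0.65, unadjusted p = 0.00527), or -2.67 without Week 3, with -1.34 under normexp. HF75 minus HFC for Ncan was -2.06 (unadjusted p = 0.0413) and HFC minus LFC was -0.39, and without Week 3 they were -0.82 (unadjusted p = 0.275) and -1.85. Prss3, a trypsinogen, was at -2.15 (SE 0.64, unadjusted p = 0.00944) with -5.75 at Week 6, and normexp gave -0.57. Without Week 6 Prss3 was at -1.44, and its other probe gave -1.56. Tcstv3 was at -1.89 (normexp -0.31), Tmem79, a membrane protein of skin, at -1.86 and the olfactory receptor Olfr60 at -1.78. These 3 were well above background on 1, 3 and 4 of the 6 HF75 arrays. Tmem79 was at -1.13 without Week 12, and normexp gave -0.87 for Tmem79 and -0.76 for Olfr60. Prlr, the prolactin receptor, was lower in 6 of 6 weeks, at -0.96 (SE 0.37, unadjusted p = 0.0322), but normexp gave -0.29 and its other probes -0.34 and -0.09. Ugt1a6b, which conjugates xenobiotics, was not lower in every week. Its difference was -1.40 (SE 0.50, unadjusted p = 0.0225; -1.15 without Week 3), beside -2.07 (SE 0.49, unadjusted p = 0.000360, adjusted p = 0.866) against HFC, or -1.47 without Week 3.

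Leaving out Week 3 brought other genes into view. The genes higher on all 5 HF75 arrays than on all 5 LFC arrays included Aph1a and App, which encode a subunit of gamma-secretase and the amyloid precursor protein, Cdc42, a small GTPase, and Gfra3, a receptor for artemin. They are named because the count is small, and were chosen after their values were seen. Aph1a lay between -1.67 and -1.28 in HF75 and between -2.62 and -2.16 in LFC, a difference of 0.85 (SE 0.26, unadjusted p = 0.0136), with 0.33 under normexp. Its other probe gave 0.64 and was lower in HF75 in 1 week. App lay between 3.40 and 4.26 in HF75 and between 1.89 and 3.40 in LFC, so the ranges all but touched, a difference of 1.01 (SE 0.33, unadjusted p = 0.0159). Gfra3 differed by 0.73 (SE 0.26, unadjusted p = 0.0266). Cdc42 differed by 0.21 (unadjusted p = 0.411), a small step between narrow ranges of 4.38 to 4.52 and 4.15 to 4.31. Its 2 other probes, well above background on all 12 arrays, gave 0.55 and 0.53 and were lower in HF75 in 1 and 2 of the 5 weeks.

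Among genes named by the rule without Week 3, Adamdec1, a protease of macrophages and dendritic cells, was at 1.57 (SE 0.48, unadjusted p = 0.0122) and lower in none of the 5 weeks, with -4.79 at Week 3. Farp2, an exchange factor for small GTPases, was at 1.46 (SE 0.38, unadjusted p = 0.00539), and Expi, of the whey acidic protein family, at 1.44 (SE 0.32, unadjusted p = 0.00223), with 0.61 under normexp and 1.36 on its other probe. Raet1a, at 1.77, Plxnb3, at 1.54, Ntn4, at 1.41, Npy1r and Lrrn3, both at 1.19, and Tcfec, at 1.17, had mean levels between -5.38 and -1.94 in the 2 diets. For Raet1a, Ntn4 and Tcfec normexp gave 0.04, 0.23 and 0.05, and for Plxnb3, Npy1r and Lrrn3 it gave 0.49, 0.42 and 0.71. The other probe of Raet1a gave -0.11 and that of Tcfec -0.40. On the lower side Golga7b was at -2.55 (SE 0.64, unadjusted p = 0.00490), the ciliary protein Tekt1 at -2.43 (SE 0.62, unadjusted p = 0.00502), with 8.06 at Week 3, Aspg, an asparaginase, at -2.01 and Lrrc46 at -1.98. Normexp gave -1.58 for Golga7b, -0.84 for Tekt1 and -0.63 for Lrrc46, and without Weeks 3 and 12 Aspg was at -1.18 and Tmem79 at -1.39. The other probe of Tekt1 gave -0.75. Srxn1, which repairs oxidised peroxiredoxins, was at -0.85 (SE 0.35, unadjusted p = 0.0424) with HF75 lower in 5 of 5 weeks, and at -0.52 over 6 weeks. Its 2 other probes gave -0.92 and -0.91 without Week 3 and were each lower in 4 of 5 weeks.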

How the data were processed

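Total RNA of mouse subcutaneous fat was measured on Agilent 1-colour arrays. Per the file headers, each deposited array file holds spot intensity values from Agilent Feature Extraction 10.5.1.1 (the submitters' processing notes name 9.1), background-subtracted and detrended within the array, with flags (other) for spots well above background, saturated or outlying. The deposited series table holds log2 values of each array against the LFC array of its time point, made by the authors with GeneSpring GX, and served as an alternative. Its symbols differed from the array files for 4 probes.

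The intensity was put on the log2 scale after division by the 75th percentile of the array, outlier spots were left out (109 missing values in 106 of the tested genes, whose fits then use fewer arrays), and each gene name was given its probe with the highest mean. The 18620 genes well above background on at least 6 of the 12 arrays were tested with limma 3.58.1 in R 4.3.3, two-sided, with week as a block, first for all weeks and then for the 10 arrays without Week 3, and adjusted by the Benjamini-Hochberg method. The week comes from the time point in the labels, which is what pairs the arrays. The deviations of the paired arrays correlated at -0.08, 0.78, 0.36, -0.24, 0.29 and 0.49 from Week 3 to Week 18. The highest correlation of each HF75 array with an LFC array of another week was 0.50, 0.23, 0.36, 0.27, 0.45 and 0.16. It was above that of the pair in Weeks 3, 9, 12 and 15. HFC values come from 1 fit of the 30 arrays of Weeks 3 to 18. The number of arrays limits the precision. The code was tested on simulated data. Scripts ran in R and Python 3.11.15.

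Genes named are up to the 10 highest and 10 lowest with an unadjusted p under 0.05 and the same sign in all weeks, in each fit and leaving out numbered clones and accessions, those of the 3 smallest p of each list that bear on the account, and always Acta1, Adipoq, Ccl2, Cd68, Ckm, Emr1, Fasn, Itgax, Lep, Mest, Scd1, Sfrp5 and Ucp1. Slc25a1, Tkt, Pgd, G6pdx, Acss2, Srebf1, Mlxipl and Thrsp were added after their values were seen, to follow the steps of fatty acid synthesis, as were the genes without overlap. The comparison, the lists and these rules were chosen with earlier results of these data known. Lists are given by counts and medians, with no test of a list. The array annotation (mm9) and the reference (GRCm38.p6) differ in build, so no probe coordinates are given. Some genes that these rules name are not reported here.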

Additional observations from a re-analysis of the deposited data

Results flagged for a closer look

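For each of 40 gene lists the mean level on each array was set against the other arrays of its diet, which made 80 groups of 6 arrays. In 17 of them 1 array lay apart from the other 5 by a gap that takes up most of the range, past the critical value of Dixon's test, which chance alone exceeds in about 1 in 20 groups. The lists of 1 array share its RNA and its scaling, so the 80 groups are not independent and the 17 cannot be weighed against that rate. HF75 held 13 of the 17, of which 11 were the array of Week 3, set apart beforehand for its muscle transcripts. That array had a mean level of 6.96 for skeletal muscle (others -3.33 to -0.65) and 6.57 for oxidative phosphorylation (3.26 to 4.49). It was low for immediate early genes at 0.0305 (3.91 to 4.38), chemokines and receptors at -3.22 (1.13 to 2.77), interferon-stimulated genes at -2.18 (0.84 to 1.73), matrix proteases and inhibitors at -0.18 (1.84 to 2.73) and xenobiotic metabolism at -0.89 (0.53 to 1.32). It was also low for adipogenic transcription factors at 0.71 (1.62 to 1.95), adipokines and fat expansion at 0.93 (1.46 to 1.52), endoplasmic reticulum stress at 0.59 (1.43 to 1.63) and skin and hair at -3.77 (-2.80 to -2.26).

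Among the HF75 arrays, that of Week 6 had the lowest mean level of the brown adipocyte markers, -4.16 (others -1.78 to -0.42), and of the liver markers, -3.82 (-1.71 to -0.96). On the LFC array of Week 12 cholesterol synthesis and uptake was at 1.48 (others -0.70 to 0.10), fatty acid oxidation at 3.21 (0.53 to 1.5) and the immediate early genes at -0.29 (3.07 to 4.53). The LFC array of Week 3 was low for the hypoxia response, 1.41 (1.95 to 2.19).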

How the results depend on the processing

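No gene passed an adjusted p of 0.05 under any of 39 settings. The count at an unadjusted p under 0.05 was 367 over 6 weeks and became 168 with normexp, 570 with no filter on dim probes, 131 for genes well above background on every array, 1387 with array quality weights, 210 with the methods' t-test, 641 with all 30 arrays and 888 with slide as a random block, and 223 (without Week 6) to 624 (without Week 9) with 1 week left out. Without Week 3 the count was 560 and became 85 with normexp, 1354 with no filter, 254 on every array, 1263 with weights and 220 with the t-test, and 400 (without Week 6) to 950 (without Week 9) with another week left out. With no replicate block for the week, so that the pairing was not used, the counts were 240 and 246. Of 83 genes of the 6-week fit, 44 had an unadjusted p under 0.05 and 0 of these turned sign. In the fit without Week 3, 0 of 25 genes turned. The 25 were named for the same sign in every week of that fit, so leaving out another week could not turn them. Part of the 44 were likewise named for the same sign in every week. The t-test and the fit with no block gave these genes the same differences as the main fit. Both counts of 0 were thus set in part by the choice of genes and do not measure robustness. Of the genes of the 6-week fit without such a p, 14 turned. With scan day as a block these were Adamdec1 (-0.45), Ccl2 (-0.30), Mlxipl (0.65), Sfrp5 (0.25), Spp1 (-0.27), Srebf1 (0.36) and Tekt1 (0.073). With array weights they were Cd68 (0.24), Emr1 (0.22), Mest (-0.0386), Srebf1 (0.17) and Ucp1 (0.44), with slide Mest (-0.25), Mlxipl (0.0172), Sfrp5 (0.39), Srebf1 (0.19) and Ucp1 (0.43), with the median Sfrp5 (0.11) and Srebf1 (0.10), and with quantile normalization Sfrp5 (0.31). With 1 week left out the ranges were -0.37 to 1.85 for Ccl2, -0.47 to 0.44 for Cd68, -0.0113 to 2.71 for Ckm, -0.62 to 0.0758 for Emr1, -1.54 to 0.011 for Itgax, -0.0421 to 1.19 for Lrrn3, -1.48 to 0.56 for Mlxipl, -0.24 to 0.13 for Sfrp5, -0.17 to 1.23 for Spp1, -0.41 to 0.38 for Srebf1, -2.43 to 0.0684 for Tekt1 and -1.14 to 0.0934 for Ucp1. The cause was not tested. Low signal over background limits the dim genes, whose differences normexp with its offset of 50 made smaller.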
